A study of Mus musculus with 23 samples.

Results

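Immunity-related GTPases are large interferon-inducible GTPases with which mouse cells defend themselves against microbes that live in vacuoles. Irgm1, Irgm2 and Igtp (also called Irgm3) form the regulatory or GMS class, named for an unusual residue in the nucleotide-binding site, and sit on the membranes of the cell. Tgtp1, Tgtp2 (the loci of Irgb6) and Iigp1 (Irga6) belong to the effector or GKS class, which loads onto pathogen vacuoles and is held inactive elsewhere by the regulatory class. In most mouse cells the family is scarce until interferon, above all interferon-gamma, turns its promoters on.

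The 6 genes Irgm1, Irgm2, Igtp, Tgtp1, Tgtp2 and Iigp1 were taken by their symbols from a table of 47643 genes in 23 RNA-seq libraries. They were chosen by values measured in the same table, since Tgtp2 and Igtp were already known as genes with large differences between sg495 and control in sorted tumor cells, and that contrast is therefore given as a description with no test. Poly(A) RNA came from B16F10, a mouse melanoma line, as bulk tumors, as tumor cells purified from tumors by magnetic depletion of stromal cells after collagenase D digestion, and as cultured cells. Tumors grew from subcutaneous injections into male C57BL/6 mice 6 to 8 weeks old. Each of the 3 sample types had 2 control libraries of WT genotype and 2 libraries for each of the guide RNAs sg492 and sg495, whose genotype is given as NR2F6 KO. Edited cells had received Cy3-labeled guide RNA with Cas9 protein and were sorted for Cy3, and they were not described as single clones. A further 2 libraries are labeled IgG control and 3 anti-PD1, all of WT genotype. Their sample type is not given.

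Nr2f6, the target, was measured in TPM (transcripts, scaled for gene length and to a fixed library total). Control bulk tumors had 25.83 and 25.24 TPM, sg492 tumors 22.31 and 23.31 TPM, and sg495 tumors 17.22 and 15.76 TPM. Sorted controls had 20.32 and 17.73 TPM, sorted sg495 cells 10.6 and 12.18 TPM, and the sorted libraries labeled sg492 19.84 and 25.7 TPM. The last were thus not lower than control for the gene that the guide targets. Nr2f6 was called lower with sg495 in cultured cells by limma (log2 difference -0.64, SE 0.114, adjusted p = 0.0213) and not in bulk tumors (-0.60, SE 0.0893, adjusted p = 0.0865), and with sg492 in neither. The 8 melanocyte markers summed to 1700 TPM or more in every library, but the 15 leukocyte markers summed to between 4914 and 7642 TPM in the IgG and anti-PD1 libraries, to between 304.4 and 665 TPM in bulk tumors, and to no more than 7.49 TPM in sorted tumor cells. The labels do not say whether libraries of a group came from separate animals or cultures, so p-values measure the spread between these libraries.

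In the reference genome 5 of the 6 genes lie on chromosome 11 in 2 clusters (GRCm38, the build also called mm10, GENCODE M21). Irgm1 (chr11:48861968-48871683), Tgtp1 (chr11:48985327-48994172) and Tgtp2 (chr11:49057194-49064206) are on the minus strand. Igtp (chr11:58199556-58207591) and Irgm2 (chr11:58199618-58222782) are on the plus strand and overlap. All 6 genes are annotated as protein-coding. The paralogs limit how finely reads can be divided. Of all 75-base stretches of its annotated exons, the read length used, Tgtp1 shared 77.2% with another gene and Tgtp2 81.4%, most of them with each other. Igtp shared 7.8% with Irgm2, and Irgm1 and Iigp1 shared none. Separate levels of Tgtp1 and Tgtp2 are therefore uncertain, and their sum is given where it matters. Gm12185, another locus of the family, also overlaps Tgtp1.

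RefSeq promoter windows (GRCm38.p6, 250 bases before to 50 bases after the start site) were found for 5 of the 6 genes; Iigp1 was not among them. They were searched on both strands for the core of the interferon-stimulated response element, GAAANNGAAA, which Irf1 and related factors bind, and for the gamma-activated site, TTCNNNGAA, which serves the response to interferon-gamma. The stretches around the matches are shown because they hold what these promoters have in common, with the matched bases in capitals, 5′ to 3′ in the direction of transcription.
Irgm2 (chr11:58214888-58214936, plus strand): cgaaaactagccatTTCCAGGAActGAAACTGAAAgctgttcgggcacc
Igtp (chr11:58199497-58199545, plus strand): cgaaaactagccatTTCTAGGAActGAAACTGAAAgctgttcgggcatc
Tgtp1 (chr11:48992300-48992348, minus strand): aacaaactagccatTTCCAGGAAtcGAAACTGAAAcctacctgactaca
Tgtp2 (chr11:49064259-49064307, minus strand): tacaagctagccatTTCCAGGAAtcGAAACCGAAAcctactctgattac
Irgm1 (chr11:48871428-48871457, minus strand): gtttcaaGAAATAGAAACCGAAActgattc

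All 5 windows held the response element core, which 3.44% of the 32851 RefSeq promoter windows of the mouse held. It was also present in 5 of 6 windows of guanylate-binding proteins and in 3 of 6 of the other loci of the family listed, so it is not particular to the 6 genes. Ifi47, a family member not in that list, had no core in its window. A gamma-activated site was present in 4 of the 5, against 8.3% of all windows, and in each of the 4 it ended 2 bases before the response element. Irgm1 had no gamma-activated site in the window and 2 overlapping response element cores instead, in a stretch that the annotation also counts as an exon of a non-coding Irgm1 transcript. The same arrangement of the pair, 2 bases apart and in this order, was found in 5 of all 32851 windows, or 0.0152%: those of Igtp, Irgm2, Tgtp1, Tgtp2 and Gm12185. The spacing was set after these promoters had been seen, and the genes are related by descent, so the count is a description. Over the 49 bases shown, Igtp and Irgm2 differed at 2 bases, Tgtp1 and Tgtp2 at 11, and Igtp and Tgtp1 at 16. The 11 bases ctagccatttc, which run into the gamma-activated site, were common to all 4. Iigp1 lies apart from the others, at chr18:60376027-60392634 on the plus strand.

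**Figure D1:**
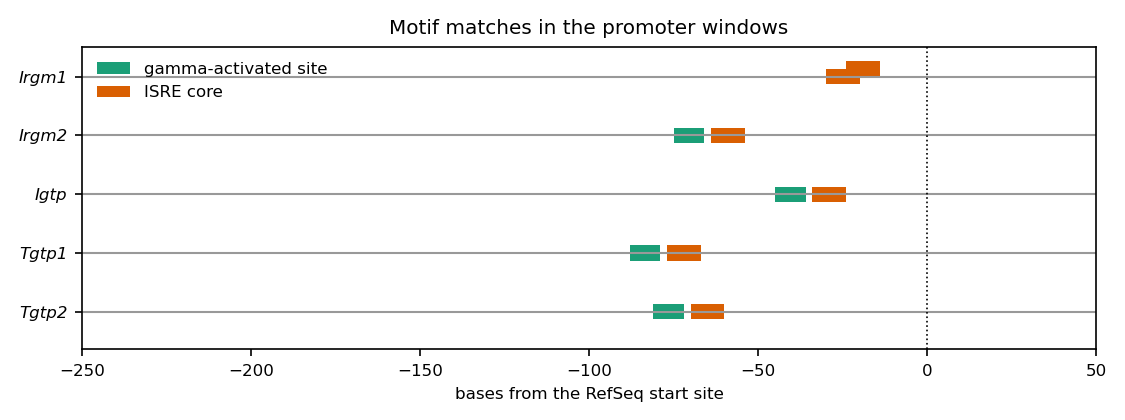
Positions of motif matches in the RefSeq promoter windows of 5 genes, in bases from the start site (horizontal axis, dotted line at the start). The gamma-activated site (green) stands 2 bases before the response element core (orange) in Irgm2, Igtp, Tgtp1 and Tgtp2, and Irgm1 has 2 overlapping cores, drawn one above the other.

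In cultured cells the family was represented by Irgm1 alone. Irgm1, the regulatory member whose loss is known to harm hematopoietic cells, was at 8.52 and 10.26 TPM in the controls, while sg492 cells had 10.36 and 11.42 TPM and sg495 cells 9.04 and 9.28 TPM. It made up between 93.7% and 98.2% of the summed TPM of the 6 genes in these libraries. Irgm2 did not exceed 0.3 TPM and Igtp 0.33 TPM in any cultured library. Tgtp1, Tgtp2 and Iigp1 had at most 0.16 TPM, and all 3 were listed at 0 in both sg495 libraries. Only Irgm1 passed the filter of a mean of 1 TPM and could be tested there. It was called for neither guide by limma (sg495 log2 difference -0.03, SE 0.109, adjusted p = 0.899; sg492 0.20, SE 0.109, adjusted p = 0.57). Of 12007 genes tested, 2.77% were called with sg495 and 0.05% with sg492, and 27.8% and 10.5% had an unadjusted p below 0.05. With the other 5 genes at or near 0, no fold change was derived for them.

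**Figure D2:**
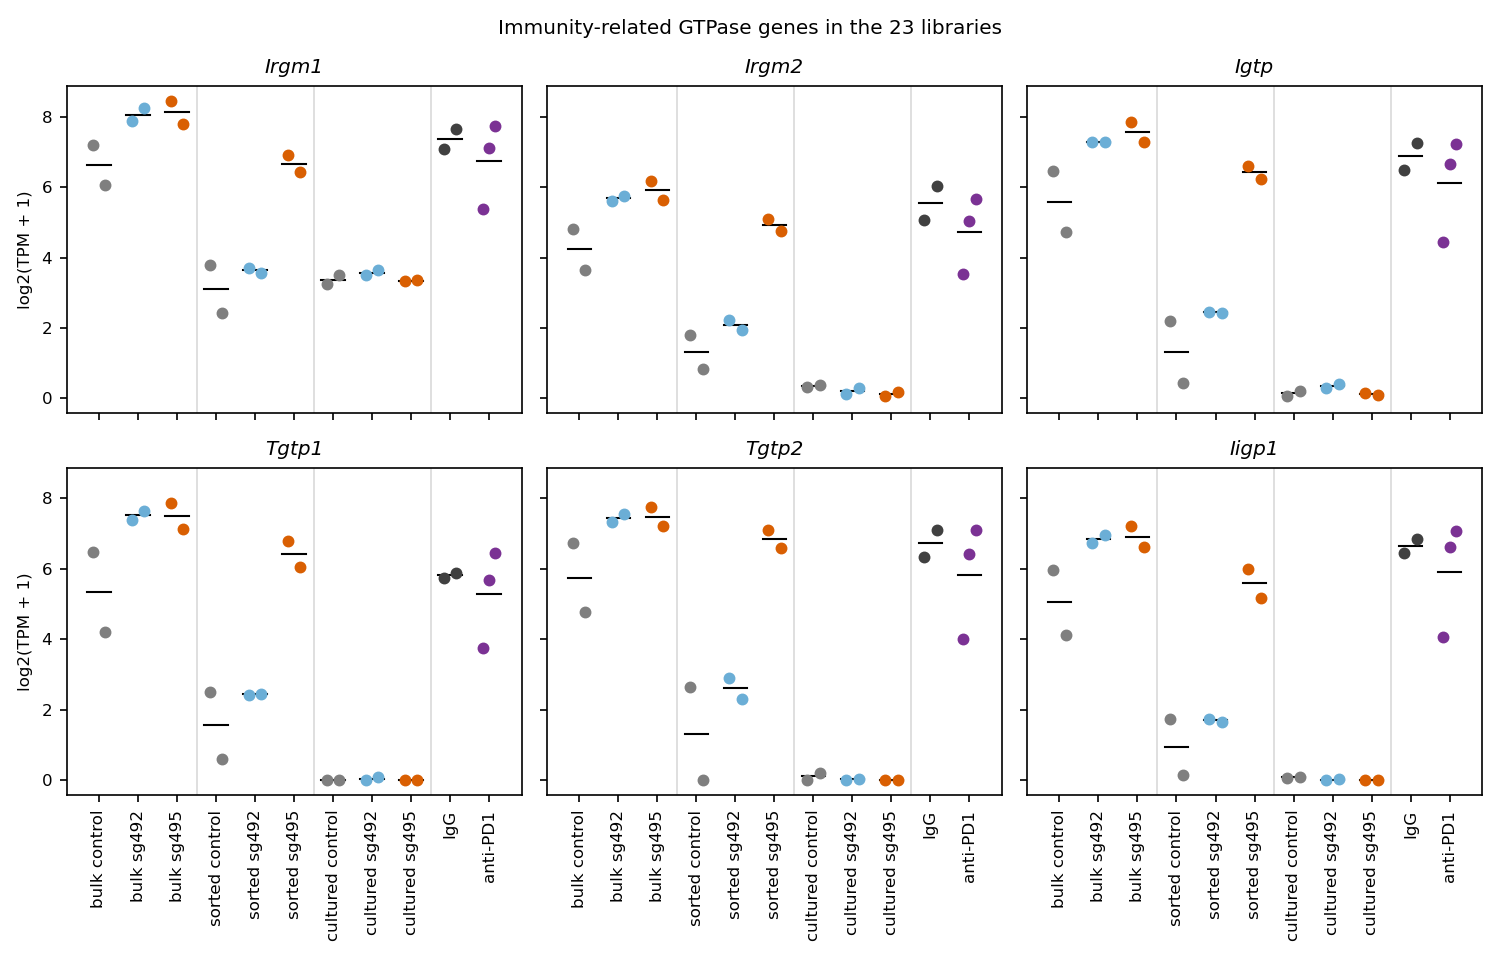
Level of each gene in all 23 libraries, as log2(TPM + 1) on the vertical axis, with a point per library and a line at the group mean. Cultured cells lie near 0 for every gene but Irgm1, and the 2 sorted sg495 libraries stand above the other 4 sorted libraries for all 6 genes.

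Bulk tumors held all 6 genes at high levels. In control tumors the regulatory genes had 145.99 and 66.24 TPM (Irgm1), 27 and 11.63 TPM (Irgm2), and 86.23 and 25.28 TPM (Igtp). The effector genes had 88.38 and 17.42 TPM (Tgtp1), 104.33 and 26.19 TPM (Tgtp2), and 61.45 and 16.53 TPM (Iigp1). Replicate 2 of control was the lower library for every gene, and the 6 genes together had 513.4 TPM in replicate 1 and 163.3 TPM in replicate 2. Whether purified tumor cells held the same level was asked by comparing bulk tumors with sorted cells.

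Sorted control tumor cells had far less of the family than control bulk tumors. Irgm1 had 12.82 and 4.33 TPM, Igtp 3.61 and 0.35 TPM, and Irgm2 2.52 and 0.8 TPM. Tgtp1 had 4.71 and 0.51 TPM, Tgtp2 5.21 and 0 TPM, and Iigp1 2.35 and 0.11 TPM. All 6 genes were called higher in bulk tumors by limma in a fit of 18 libraries, where 8.27% of 13152 genes were called higher. The sorted controls belong to the contrast that helped to choose the genes. The means that the genes had over the 18 libraries came largely from bulk tumors and sorted sg495 cells. The count of 6 is therefore a description. The log2 differences ran from 2.90 (SE 0.349, adjusted p = 5.42e-05) for Irgm2 to 4.42 (SE 0.697, adjusted p = 0.000476) for Tgtp2, with a median of 3.94 over the 6 and 0.01 over all genes. The mean of sorted control cells was between 3.15% (Iigp1) and 8.59% (Irgm2) of that of bulk control tumors. Markers of other cells moved in the same comparison: 8 of 10 leukocyte markers tested, 5 of 5 fibroblast markers and 3 of 3 endothelial markers were called higher in bulk tumors. The sort was made to deplete such cells, and most of these markers passed the filter through bulk tumors, so no conclusion is drawn from these counts. The 15 leukocyte markers summed to 405.5 and 304.4 TPM in control bulk tumors and to 3.08 and 4.47 TPM after sorting, where 9 and 10 of them were listed at 0. In bulk samples fewer cells of a type and less RNA per cell cannot be told apart, and the part of each cell type in the bulk level was not tested.

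Against cultured cells, sorted control tumor cells were called higher for 1 of the 6 genes, Irgm2 (log2 difference 0.98, SE 0.349, adjusted p = 0.0384), where 12.4% of genes were called higher. Igtp (1.17, SE 0.524, adjusted p = 0.0915) and Tgtp1 (1.55, SE 0.643, adjusted p = 0.0697) missed the threshold. Irgm1 had a difference of -0.27 (SE 0.409, adjusted p = 0.642). Irgm2 had no more than 2.52 TPM in these libraries, and the genes other than Irgm1 entered this fit of 18 libraries largely through bulk tumors and sorted sg495 cells, so the count supports nothing. It was 0 without replicate 1 of sorted control (2457 of 13159 genes called in either direction) and 5 without its replicate 2 (2505 of 13161). It was 0 without replicate 1 (2480 of 13188) and without replicate 2 (2398 of 13192) of cultured control. Of 9 guanylate-binding proteins tested, which act with this family, 1 was called higher in sorted cells, where 12.4% of all genes were. It was Gbp2 (1.73, SE 0.605, adjusted p = 0.0352), with 9.29 and 1.26 TPM in the sorted controls. Of 8 genes of the interferon-gamma axis 1 was called, the transcription factor Irf1, which was lower (-1.37, SE 0.321, adjusted p = 0.00427). Of 12 genes of the type I interferon axis 5 were called higher, among them the ubiquitin-like modifier Isg15 (1.34) and the transcription factor Irf7 (0.93).

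The comparison of the study is between Nr2f6-edited and control cells. In bulk tumors with sg495, Irgm1 had 348.45 and 220.4 TPM, Irgm2 71.56 and 48.59 TPM, and Igtp 229.14 and 155.78 TPM. Tgtp1 had 232.07 and 138.48 TPM, Tgtp2 216.09 and 146.7 TPM, and Iigp1 146.32 and 96.78 TPM. Both sg495 libraries were above both controls for each of the 6 genes, a pattern that 31.6% of 13639 genes tested showed. The ratio of group means lay between 2.68 (Irgm1) and 3.5 (Tgtp1).

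None of the 6 genes was called for sg495 in bulk tumors by limma, and 4 genes of the whole table were called, or 0.0293%. The log2 differences were 1.48 for Irgm1 (SE 0.389, adjusted p = 0.148), 1.67 for Irgm2 (SE 0.37, adjusted p = 0.115) and 1.99 for Igtp (SE 0.519, adjusted p = 0.148). They were 2.15 for Tgtp1 (SE 0.687, adjusted p = 0.208), 1.74 for Tgtp2 (SE 0.583, adjusted p = 0.227) and 1.86 for Iigp1 (SE 0.554, adjusted p = 0.182). The unadjusted p was below 0.05 for all 6, all of them higher with sg495, as it was for 11.1% of all genes. Their median difference was 1.80, against 0.06 for all genes tested. The control libraries decided the result. Without replicate 1 of control 5 of the 6 genes were called, with 190 of 13674 genes called in either direction, and the differences ran from 2.05 (Irgm1) to 3.29 (Tgtp1). Without replicate 2, the lower one, none of the 6 was called, and they ran from 0.77 (Tgtp2) to 1.12 (Igtp).

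The sg492 tumors gave nearly the same levels. Irgm1 had 232.24 and 300.46 TPM, Irgm2 47.95 and 52.72 TPM, and Igtp 153.1 and 153.23 TPM. Tgtp1 had 166.03 and 199.24 TPM, Tgtp2 160.09 and 187.36 TPM, and Iigp1 105.89 and 122.91 TPM. Again both libraries were above both controls for all 6 genes, as for 31.1% of all genes. The log2 differences ran from 1.42 (Irgm1, SE 0.389, adjusted p = 0.497) to 2.17 (Tgtp1, SE 0.687, adjusted p = 0.508) with a median of 1.69, and no gene of the table was called (0%). The unadjusted p was below 0.05 for all 6 genes, all higher, and for 6.67% of all genes in that direction. Without replicate 1 of control, 4 of the 6 were called, with 66 of 13674 genes called in either direction, and the differences ran from 1.98 (Irgm1) to 3.31 (Tgtp1). Without its replicate 2 they ran from 0.73 (Tgtp2) to 1.03 (Tgtp1). Both guides were compared with the same 2 control libraries, so these are not independent results.

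Set against each other, sg495 and sg492 tumors differed by between -0.02 (Tgtp1, SE 0.687) and 0.30 (Igtp, SE 0.519) on the log2 scale. No gene was called (0%), and none of the 6 had an unadjusted p below 0.05, against 10.1% of all genes. With standard errors of this size, the comparison does not show that the guides act alike. For the sum of Tgtp1 and Tgtp2, which depends less on how reads were divided between them than either level does, control tumors had 192.7 and 43.61 TPM, sg492 tumors 326.1 and 386.6 TPM, and sg495 tumors 448.2 and 285.2 TPM.

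The leukocyte markers were not called in these comparisons, but their sums differed. The 15 markers summed to 454.6 and 538.6 TPM in sg492 tumors and to 597.2 and 665 TPM in sg495 tumors, above the control sums given before. Within sg495 the order of the libraries was the opposite of that of the 6 genes, which summed to 1244 and 806.7 TPM. By limma 0 of the 13 tested were called in either comparison (median log2 difference 0.93 with sg495 and 0.48 with sg492), and 8 and 7 had an unadjusted p below 0.05. Of all 13639 genes, 2135 and 1132 had such a p in either direction. Ptprc, which encodes CD45, had its lowest value in the same control library as the 6 genes, 5.74 TPM, and its highest, 26.21 TPM, in replicate 2 of sg495. Fibroblast markers summed to 396.7 and 333.7 TPM in control, to 452.4 and 542.2 TPM in sg492 and to 543.1 and 947.8 TPM in sg495 tumors, while endothelial markers stayed between 35.91 and 46.38 TPM. None of the 6 fibroblast, 4 endothelial and 8 melanocyte markers was called, with medians of 0.93, 0.17 and -0.02 for sg495 and with 5, 0 and 0 below 0.05 unadjusted. The part of these cells in the difference was not tested.

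In sorted tumor cells with sg495 all 6 genes stood far above the sorted controls. Igtp had 95.45 and 74.61 TPM, Irgm1 118.31 and 85.62 TPM, and Irgm2 33.45 and 26.2 TPM. Tgtp2 had 136.31 and 94.56 TPM, Tgtp1 108.93 and 65.72 TPM, and Iigp1 63.27 and 35.34 TPM. Both libraries lay above both sorted controls for all 6 genes, with no overlap.

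These values chose the genes, so they carry no test. The ratio of group means was 11.9 for Irgm1, 18 for Irgm2, 33.5 for Tgtp1, 40.1 for Iigp1, 42.9 for Igtp and 44.3 for Tgtp2. On the scale of log2(TPM + 1) the differences were 3.57, 3.60, 4.87, 4.65, 5.10 and 5.52 in that order of genes, and the median was 4.76. All 6 were at least 1.5-fold higher with no overlap, as were 3.92% of 12899 genes, from which nothing is read here. All 6 also had a mean of at least 1 TPM over the other 4 sorted libraries, so none was kept only through sg495. Without replicate 2 of control, which had the lowest values, the median difference was 3.88, and without replicate 1 it was 5.63.

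**Figure D3:**
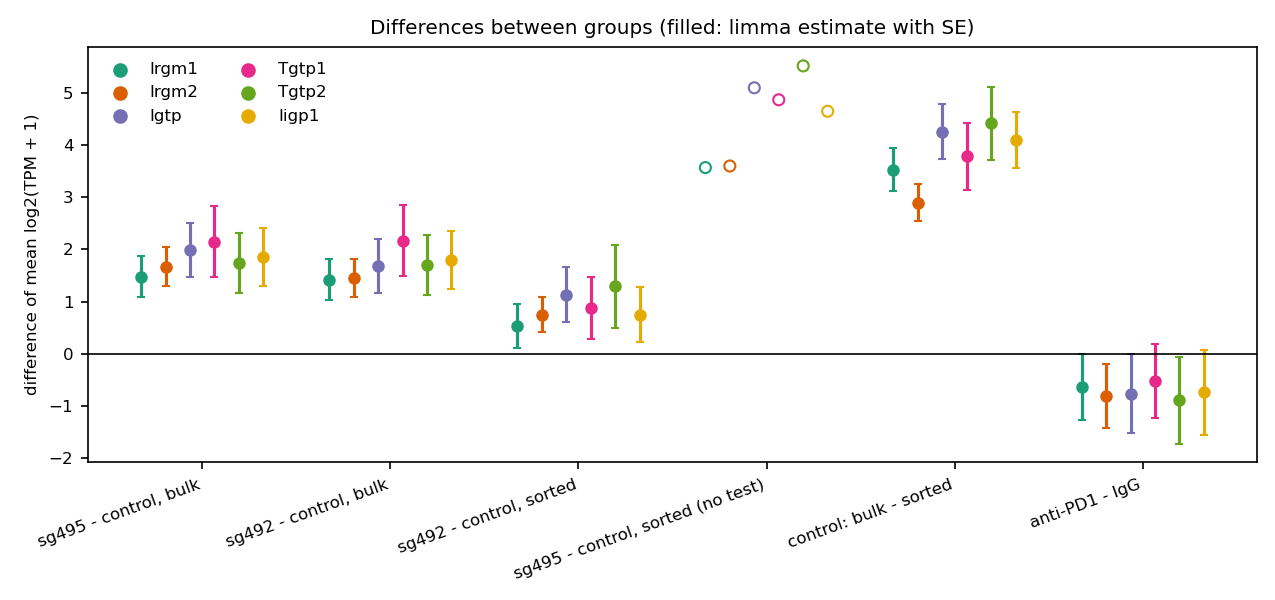
Differences of mean log2(TPM + 1) between groups for the 6 genes. Filled points are limma estimates with their SE, and open points are the sorted sg495 differences, which have no test; all 6 genes lie between 3.57 and 5.52 there and between 1.48 and 2.15 for sg495 in bulk tumors.

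Leukocyte marker RNA was low in the sorted libraries. The 15 leukocyte markers summed to 4.18 and 7.49 TPM with sg495, where the controls had the 3.08 and 4.47 TPM given before, with 9 of 15 listed at 0 in each sg495 library. Ptprc had 0.15 and 0.02 TPM and Cd3e was at 0 in all 6 sorted libraries. Sorted sg495 cells kept between 35.8% (Irgm1) and 63.6% (Tgtp2) of the mean TPM of sg495 bulk tumors for the 6 genes. The share was 0.383% for Ptprc, 0.297% for Tyrobp and 0.164% for Lyz2, which were picked from the 15 markers. Cd79a and S100a8 of that list did not fall in this way. Cd79a had 3.05 and 2.38 TPM in sorted sg495 cells and 1.61 and 1.87 TPM in sg495 bulk tumors. S100a8 had 0 and 4 TPM in sorted sg495 cells and 1.69 and 2.41 TPM in sg495 bulk tumors. The fibroblast markers summed to 4.23 and 4.08 TPM and the endothelial markers to 0.42 and 0.58 TPM in these libraries. Mitochondrial genes took 8.02% of the TPM in replicate 1 of sorted sg495 and between 3.45% and 4.73% in the other 5 sorted libraries.

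**Figure D4:**
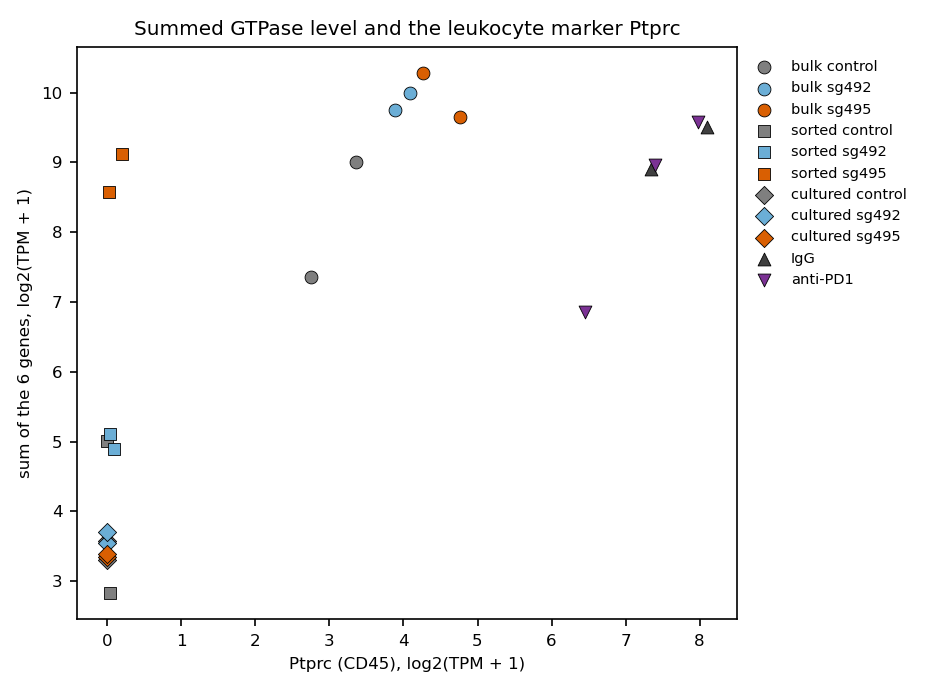
Summed level of the 6 genes against Ptprc, both as log2(TPM + 1), with a point per library and 1 color and shape per group. The sorted sg495 libraries (orange squares) lie near 0 for Ptprc, beside the other sorted and cultured libraries, and above them for the GTPases.

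The libraries labeled sg492 did not share this level. Irgm1 had 12.01 and 10.85 TPM, Irgm2 3.67 and 2.85 TPM, and Igtp 4.51 and 4.4 TPM. Tgtp1 had 4.37 and 4.47 TPM, Tgtp2 6.48 and 3.97 TPM, and Iigp1 2.33 and 2.15 TPM. Both libraries were above both controls for Irgm2 and Igtp, that is 2 of the 6 genes, as for 20.4% of all genes, and the groups overlapped for the other 4. The log2 differences lay between 0.53 (Irgm1, SE 0.424, adjusted p = 0.809) and 1.29 (Tgtp2, SE 0.791, adjusted p = 0.76). None of the 6 was called by limma, where 0.0388% of genes were called, and none had an unadjusted p below 0.05, against 7.13% of genes. Without replicate 2 of control the difference was -0.15 for Irgm1, -0.08 for Tgtp1, -0.03 for Tgtp2 and -0.05 for Iigp1. Nr2f6 RNA was not lower in these libraries, but RNA level alone cannot show whether they carry the edit. The paper reports that the knockout was checked by immunoblot and by sequencing of the targeted regions. Whether these values reflect the edit was not tested.

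Irgm1 shows the order of the groups. By group mean (± SD) it had 284.4 ± 90.5 TPM in sg495 and 266.4 ± 48.2 TPM in sg492 bulk tumors, 106.1 ± 56.4 TPM in control bulk tumors and 102 ± 23.1 TPM in sorted sg495 cells, with n = 2. Neighbours in this order overlapped, except that both sg492 tumors lay above both control tumors. The other 5 groups followed below, at 11.43 ± 0.82 TPM in the sorted libraries labeled sg492, 10.89 ± 0.75 TPM in sg492 and 9.39 ± 1.23 TPM in control cultured cells, 9.16 ± 0.17 TPM in sg495 cultured cells and 8.575 ± 6 TPM in sorted control cells. These neighbours overlapped too, except sg492 and control cultured cells, whose nearest libraries were 10.36 and 10.26 TPM. No library of the 3 sample types fell between 12.82 and 66.24 TPM. The means were 168.8 ± 46.7 TPM for IgG and 129.9 ± 85.9 TPM for anti-PD1 (n = 3), which have no labeled sample type and are not placed in this order. For Tgtp2 the lowest group means were 0 TPM in sg495 and 0.015 TPM in sg492 cultured cells, and the highest were 181.4 ± 49.1 TPM in sg495 and 173.7 ± 19.3 TPM in sg492 bulk tumors.

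The makeup of the family differed between the groups. The regulatory class took between 97.9% and 100% of the summed TPM in cultured cells, 60.7% and 89.8% in sorted control cells, 44.5% and 48.8% in sorted sg495 cells, and between 49.8% and 63.2% in bulk tumors. Irgm1 alone took 21.3% and 22.4% in sorted sg495 cells. Igtp and Irgm2, which share a cluster, had a ratio of TPM between 2.85 and 3.21 in the 4 libraries of sg495 tumors and sorted sg495 cells. It was between 1.23 and 1.54 in the other sorted libraries where it could be formed, 2.17 in replicate 2 of control bulk tumors and between 2.91 and 3.19 in the other 3 bulk libraries. Tgtp2 over Tgtp1 was 1.25 and 1.44 in sorted sg495 cells and 0.931 and 1.06 in sg495 bulk tumors. The uncertainty that their shared sequence adds to this ratio was not measured. Pearson's r between pairs of the 6 genes on the log2(TPM + 1) scale was between 0.979 and 0.999 over the 6 bulk libraries and between 0.99 and 0.999 over the 6 sorted libraries, as a description, since all pairs share the same libraries and groups.

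**Figure D5:**
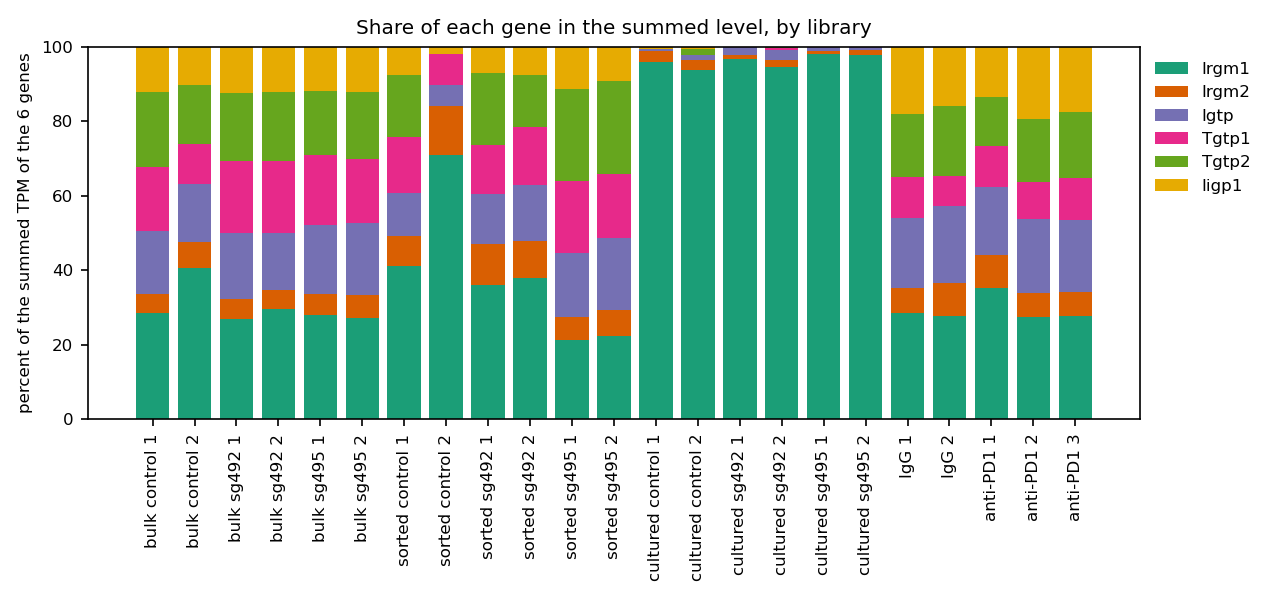
Share of each gene in the summed TPM of the 6 genes, in percent, with a bar per library. Irgm1 fills between 93.7% and 98.2% of the bars of cultured cells and 21.3% and 22.4% of those of sorted sg495 cells.

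Whether the sg495 difference was larger in bulk tumors than in culture could be asked only of Irgm1, since the other 5 genes had no more than 0.33 TPM in any cultured library. Their interaction terms restate the bulk difference and are not read as a contrast with culture. For Irgm1 the interaction was 1.51 on the log2 scale (SE 0.578, adjusted p = 0.219), with an unadjusted p of 0.0223. It was not called, while 1.76% of 13152 genes were called and 11.6% had an unadjusted p below 0.05 with the larger difference in bulk tumors. Of 8 genes of the interferon-gamma axis 2 passed, among them Irf1 (2.0, SE 0.454, adjusted p = 0.0433), and of 12 of the type I axis 2 passed, Oas1a and Stat2. Part of these terms came from lower levels in culture. The Oas1a term of 2.32 joined 0.81 in bulk tumors, which was not called, and -1.52 in cultured cells, which was. For Irf1 the differences were 1.52 in bulk tumors and -0.48 in cultured cells, and neither was called. Of 10 leukocyte markers tested 2 passed as well, Ptprc (1.46, SE 0.302, adjusted p = 0.0325) and the macrophage marker Adgre1 (1.31, SE 0.298, adjusted p = 0.0446). Both were listed at 0 in every cultured library, so their terms too restate the bulk difference and are not read as a contrast with culture. The part of leukocytes in the result was not tested.

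The ligand and its signaling chain were measured alongside. For Ifng, the ligand, control bulk tumors had 0.34 and 0.18 TPM, sg492 tumors 1.14 and 0.7 TPM, and sg495 tumors 1.11 and 0.93 TPM, and it was listed at 0 in both sorted sg495 libraries. For its receptor chain Ifngr1, sorted controls had 16.55 and 16.69 TPM and sorted sg495 cells 13.13 and 12.47 TPM. The ligand was thus near 0 and the receptor present in sorted cells. For Irf1, sorted controls had 6.4 and 2.91 TPM, sorted sg495 cells 73.34 and 53.74 TPM, and sorted libraries labeled sg492 12.34 and 7.47 TPM. For these genes, too, the sorted sg495 contrast was not tested, since it helped to choose the family.

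In bulk tumors 0 of the 8 genes of the interferon-gamma axis that were tested passed with sg495 (median log2 difference 0.75) or sg492 (0.63), against 0.06 over all genes in both. By limma 6 and 5 of them had an unadjusted p below 0.05, as had 2135 and 1132 of all 13639 genes in either direction. Irf1 had 1.52 with sg495 (SE 0.261, adjusted p = 0.0973). Of 12 genes of the type I interferon axis 0 passed with either guide (medians 0.85 and 0.76), with 9 and 9 at an unadjusted p below 0.05. Of 10 guanylate-binding proteins, the partner family that is recruited to the same vacuoles, 0 passed (medians 1.95 and 1.68), with 10 and 8 below 0.05 unadjusted, and Gbp2 had 2.08 with sg495 (SE 0.544, adjusted p = 0.148). Of 13 genes listed as autophagy and ubiquitin partners of the family, 0 passed, with medians of -0.04 and 0.04 and with 3 and 1 below 0.05 unadjusted. The 3 with sg495 went in both directions: Trim21 was higher (1.28), and Map1lc3b (-0.46) and Gabarapl2 (-0.33) were lower. Between control bulk tumors and sorted control cells, 8 of 9 guanylate-binding proteins were called higher in bulk tumors, as were 8.27% of 13152 genes. So were 4 of 8 genes of the interferon-gamma axis and 8 of 12 of the type I axis. Of 13 autophagy and ubiquitin genes, 1 was called higher and 2 were called lower there. Of all 13152 genes, 587 were called lower. Some listed genes, such as Gbp8 with 0 TPM in both sorted controls, passed the filter largely through bulk tumors. No conclusion is drawn from these counts. In cultured cells with sg495 the antiviral gene Oas1a of the type I axis was called lower (-1.52, SE 0.192, adjusted p = 0.0077).

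Other loci of the family were measured in the same libraries, in a list that leaves out Ifi47, a family member given with the neighbouring genes. Of 10 such loci 9 were tested in bulk tumors and 0 passed with either guide (median log2 difference 1.29 with sg495 and 1.1 with sg492). Below 0.05 unadjusted were 7 and 7, against 2135 and 1132 of all 13639 genes in either direction. For Gm12250, control bulk tumors had 20.82 and 5.01 TPM and sg495 tumors 45.8 and 31.21 TPM. GENCODE M21 lists this locus as a processed pseudogene, and whether its RNA encodes a protein cannot be told from these data. Sorted controls had 0.4 and 0 TPM of Gm12250 and sorted sg495 cells 10.56 and 5.94 TPM. Gm12185, whose promoter carries the paired motifs, had 0.1 and 0 TPM and 4.69 and 1.3 TPM in these sorted groups, and it overlaps Tgtp1. Irgq, a distant and constitutive relative, stayed between 5.77 and 8.17 TPM in all 6 sorted libraries. By limma it was called lower in sorted than in cultured control cells (-0.86, SE 0.0966, adjusted p = 2.12e-05). Irgc1, known for its expression in testis, did not exceed 0.13 TPM in any of the 18 libraries of the 3 sample types. It had 2.99 and 1.16 TPM with IgG and 0, 0.91 and 1.77 TPM with anti-PD1.

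Neighbouring genes within 100000 bases on chromosome 11 were compared to see how far the difference reached. In bulk tumors none was called with either guide, and the sg495 differences ran from -0.17 (4930438A08Rik) to 1.75 (Ifi47). In sorted sg495 cells Olfr56, which overlaps Tgtp1, had a log2 difference of 2.48, Psme2b, 39137 bases from Tgtp1, had 1.3, and Trim7, 9759 bases from Irgm1, had 0.63. The others tested, among them Rack1, Trim41, Gemin5 and Mrpl22, lay between -0.21 and 0.21. Ifi47, 12381 bases from Tgtp2, had 4.31 and encodes Irgd, another GTPase of the family that was not among the 6. The sorted values carry no test. Too low to include were 3 olfactory receptor genes and, in sorted cells, also 4930438A08Rik.

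Genes with the most similar pattern were ranked by the mean of 2 Pearson correlations with the mean log2(TPM + 1) of the 6 genes, 1 over the 6 bulk and 1 over the 6 sorted libraries, among 12384 genes. The first 5 were Gbp7 (0.996), Ifi47 (0.993), Rtp4 (0.993), Tap1 (0.993) and Gbp6 (0.993). The sorted correlation rests largely on the sg495 libraries, whose contrast helped to choose the family, so the ranking is a description. Gbp7 and Gbp6 are guanylate-binding proteins, Rtp4 is an interferon-induced chaperone and Tap1 is a subunit of the transporter that feeds peptides to MHC class I. For Gbp7, sorted controls had 2.26 and 0.31 TPM and sorted sg495 cells 27.37 and 22.74 TPM. The promoter window of Gbp7 held 1 response element core and 2 gamma-activated sites, and those of Ifi47 and Tap1 held neither.

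The anti-PD1 and IgG libraries stood apart by their leukocyte RNA and were compared only with each other. With IgG, Irgm1 had 135.76 and 201.84 TPM, Tgtp2 80.26 and 136.9 TPM, and Iigp1 86.67 and 115.16 TPM. With anti-PD1, Irgm1 had 40.35, 137.69 and 211.71 TPM, Tgtp2 15, 84.4 and 135.07 TPM, and Iigp1 15.58, 96.74 and 133.95 TPM. Replicate 1 of anti-PD1 was the lowest of the 5 libraries for all 6 genes, and the groups overlapped for each.

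No member was called between anti-PD1 and IgG, no gene of the table was (0% of 13418), and none of the 6 had an unadjusted p below 0.05, against 7.18% of genes. The log2 differences were between -0.89 (Tgtp2, SE 0.833, adjusted p = 0.7) and -0.52 (Tgtp1, SE 0.704, adjusted p = 0.793). Without replicate 1 of anti-PD1 they were 0.04 for Irgm1, 0.06 for Igtp, 0.25 for Tgtp1, 0.03 for Tgtp2 and 0.19 for Iigp1. That library also had the lowest sum of the leukocyte markers, 4914 TPM against 7012 TPM or more in the other 4, the lowest Ifng of the 5, 0.78 TPM, and the highest mitochondrial share, 21.9%. The melanocyte markers summed to 4007 and 1700 TPM with IgG and to 5194, 5137 and 3408 TPM with anti-PD1. None of the 8 was called by limma, the median log2 difference was 0.92, and 4 had an unadjusted p below 0.05. Their part in the difference was not tested.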

How the data were processed

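The authors trimmed reads with Cutadapt 2.3, aligned them with STAR 2.7.0d to mm10 and quantified genes with RSEM 1.3.1; they deposited TPM for 47643 genes and 23 libraries. TPM divide reads among paralogs by an estimate and carry no depth, so the depth of each library is unknown here, and no counting interval was derived. The authors' DESeq2 test on estimated counts was not repeated.

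TPM were used as log2(TPM + 1), so fold changes of low genes are understated. Genes whose mean over the libraries fitted reached 1 TPM were tested with limma 3.58.1 in R 4.3.3 (trend, 1 mean per group, 2-sided, Benjamini-Hochberg over all genes tested), per sample type over 6 libraries, over 18 libraries between sample types, and for the 5 IgG and anti-PD1 libraries alone. Calls needed an adjusted p under 0.05 together with a change of 1.5-fold or more. With 2 libraries against 2 the smallest p of an exact permutation test is 0.333. The fitting procedure was tested on simulated data. The members and the gene lists were chosen with earlier results of these data known. The genes named are the 6 members, Nr2f6, the other loci of the family, the interferon, guanylate-binding, autophagy and cell type lists and the 5 genes of most similar pattern; neighbouring genes were chosen by position. For Gbp6 and Itgam, which have a second identifier in the table, the main one was used. Positions came from GENCODE M21, which holds 99.1% of the genes. Alternatives were a pseudocount of 0.1, no filter, a filter of 5 TPM, median-of-ratios and quantile scaling, a replicate block, a fit of 18 libraries, Tgtp1 and Tgtp2 summed, and each library left out. Python 3.11.15 with pandas 2.3.3 was used for the rest. A gene of the interferon-gamma axis is not reported here by name.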

Additional observations from a re-analysis of the deposited data

How the results depend on the processing

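Settings were changed one at a time. The 6 members stayed called between control bulk tumors and sorted control cells under every alternative, and under every alternative run 0 were called between sg495 and sg492 tumors, in sorted cells labeled sg492 and in cultured cells. For sg495 in bulk tumors, 2 members were called in the fit of 18 libraries and 0 to 5 with 1 library left out. For sg492 in bulk tumors the count was 0 to 4 and for the interaction 0 to 4 with 1 library left out. In each of these the highest count came without replicate 1 of bulk control, which leaves the lone control library assumed to vary like the other groups. All interaction calls fell on genes near 0 in culture, whose terms restate the bulk difference, and none on Irgm1. Between sorted and cultured control cells the single call became 3 with a pseudocount of 0.1 TPM, 0 with no filter on low values, 0 with quantile normalization and 4 with the replicate block, and ran from 0 to 5 with 1 library left out. The sorted sg495 median of 4.76 was 5.83 with a pseudocount of 0.1 TPM. The cause of these changes was not tested.

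Within a sample type, and between IgG and anti-PD1, replicate numbers did not pair the libraries (correlations of deviations between -0.126 and 0.085). Whether bulk and sorted libraries of the same number are paired was not tested. With the replicate number as a block 6 members and 514 genes were called between anti-PD1 and IgG, a fit that drops replicate 3 of anti-PD1, which has no IgG library of its number. Beside these 2 comparisons the block changed no count of members called. Crossing the sg492 numbers in bulk tumors, an alternative chosen after seeing the data, called 0 members.

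Some differences changed sign. For sg495 against sg492 in bulk tumors, Tgtp1 was 0.01 with Tgtp1 and Tgtp2 summed, and with 1 library left out the differences ran from -0.26 to 0.40 for Irgm1, -0.05 to 0.50 for Irgm2, -0.39 to 0.35 for Tgtp1, -0.24 to 0.32 for Tgtp2 and -0.24 to 0.36 for Iigp1. In sorted libraries labeled sg492 they ran from -0.15 to 1.22 for Irgm1, -0.08 to 1.84 for Tgtp1, -0.03 to 2.61 for Tgtp2 and -0.05 to 1.54 for Iigp1, and for Irgm1 in cultured sg495 cells from -0.15 to 0.09. For anti-PD1 they ran from -1.14 to 0.04 for Irgm1, -1.33 to 0.06 for Igtp, -1.10 to 0.25 for Tgtp1, -1.52 to 0.03 for Tgtp2 and -1.33 to 0.19 for Iigp1. Between sorted and cultured controls Irgm1 was 0.13 with the replicate block and -0.96 to 0.42 with 1 library left out, and Tgtp2 -0.11 to 2.53. TPM hold no depth, so how far depth limits the low values of sorted and cultured cells is unknown.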
